A study of Mus musculus with 10 samples.

Results

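The 10 genes described here encode receptor chains for cytokines of the common gamma chain family and of the IL-6 family: Il2ra, Il2rb, Il2rg, Il7r, Il21r, Il4ra, Il15ra, Il9r, Il6ra and Il6st. They were picked by name from the 23992 gene symbols in the tables, and for each the transcript with the most reads over the 10 libraries was used. All samples were CD8+ T cells from the spleen of C57BL/6N mice, activated for 48 h on plate-bound anti-CD3 (2 µg/ml) with soluble anti-CD28 (2 µg/ml) in medium with serum, then pooled, washed and plated again. For the next 48 h they received no cytokine, human IL-2 (100 IU/ml) or mouse IL-21 (100 ng/ml). A further pair of groups received IL-2 or IL-21 together with NCI-737 (LDHi, 1 µM), a compound that the labels describe as a pyrazole-based inhibitor of lactate dehydrogenase, the enzyme that turns pyruvate into lactate. The inhibitor was present from activation onward, and no group received it without a cytokine. There were 5 groups with 2 libraries of poly(A) RNA in each. The labels do not say what separates the replicates, so a p-value reflects only how far apart these libraries lie, which may be technical.

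A cytokine of the gamma chain family binds a private chain that pairs with the common gamma chain, encoded by Il2rg, and the kinases JAK1 and JAK3 on the chain tails then phosphorylate STAT proteins. IL-2 signals through Il2rb and Il2rg, and Il2ra adds high affinity. IL-15 uses the same signalling pair with Il15ra, while IL-7, IL-21, IL-4 and IL-9 use Il7r, Il21r, Il4ra and Il9r. In the IL-6 family, the private chain Il6ra binds IL-6 and the shared chain Il6st, also called gp130, carries the signal. In CD8+ T cells Il2ra is known as a marker of strong IL-2 signalling, and Il7r and Il6ra are known to be high in naive and memory cells.

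The 10 receptor genes together took 80068 to 152011 reads per library, or 0.257 to 0.346% of the reads on the kept transcripts. Library totals given by the authors were 45138204 to 62848913 reads, and the replicates of IL-21 were the furthest apart, with an SD of 0.76 for the log2 difference between them over genes, against 0.30 to 0.49 in the other groups. The CD8+ T cell markers (7 of the 8 listed were found) summed to 1423 to 2066 RPKM (reads scaled by transcript length and library size) in all groups, and Cd4 lay at a mean of 0.238 to 0.810 RPKM. The macrophage and monocyte list (4 of 5 found) summed to 126 to 163 RPKM without cytokine, 40.8 to 45.0 in IL-21, 10.9 to 13.5 in IL-2, 10.4 to 15.7 in IL-2 + LDHi and 5.43 to 7.22 in IL-21 + LDHi. Basophil and mast cell genes (4 of 4 found) summed to 193 to 428 RPKM without cytokine, 61.4 to 82.9 in IL-21 and at most 2.64 in the other groups. The ranges of both sums do not overlap in any pair of groups compared, except for the macrophage sum between IL-2 and IL-2 + LDHi. These levels therefore move with the receptor comparisons, that of IL-21 against IL-2 included, and their part in the receptor differences was not tested. In bulk RNA, fewer cells of a type and less RNA per cell cannot be told apart.

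The genes lie on 7 chromosomes, and 2 pairs are neighbours in the mm10 genome (GENCODE annotation). Il2ra (chromosome 2, 11642807 to 11693193) and Il15ra (chromosome 2, 11705290 to 11734317) are adjacent coding genes 12097 bases apart, and Il4ra (chromosome 7, 125552120 to 125579474) lies 23955 bases before Il21r (chromosome 7, 125603429 to 125633570). Il2rb (78479256 to 78495271) and Il7r (9505788 to 9530176) are both on chromosome 15, Il2rg on X (101264378 to 101268255), Il9r on 11 (32187541 to 32200279), Il6ra on 3 (89864059 to 89913196) and Il6st on 13 (112464070 to 112510086). Il2rg overlaps another coding gene model on its strand, Gm20489, and Il4ra and Il6ra overlap antisense RNAs. Whether counting used strand, not given in the sources used here, bears on these genes, since reads of overlapping genes cannot otherwise be told apart.

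RefSeq promoter windows (GRCm38.p6, 250 bases before to 50 after a start site) were found for 9 of the 10 genes. The windows were searched on both strands for the STAT half-site pair TTCNNNGAA and the FOXO site GTAAACA, which 8.30% and 3.65% of all 32851 windows hold. Each was found in 1 receptor gene, and these windows are printed along with those of Il2ra, Il6ra and Il6st, whose RNA differed most between groups among the 9 genes detected in all of them. Only bases before the start site are shown, for Il7r the nearest 164, and capitals mark the STAT match in Il7r and the FOXO match in Il21r (read on the opposite strand). A match of letters is a description of the sequence, not a binding site.
Il2ra (chr2:11642542-11642791, plus strand): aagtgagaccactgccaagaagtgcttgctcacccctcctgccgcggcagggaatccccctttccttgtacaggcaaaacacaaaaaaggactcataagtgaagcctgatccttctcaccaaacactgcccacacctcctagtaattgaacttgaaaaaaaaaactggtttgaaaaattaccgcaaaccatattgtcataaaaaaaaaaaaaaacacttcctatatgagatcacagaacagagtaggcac
Il7r (chr15:9529877-9530040, minus strand): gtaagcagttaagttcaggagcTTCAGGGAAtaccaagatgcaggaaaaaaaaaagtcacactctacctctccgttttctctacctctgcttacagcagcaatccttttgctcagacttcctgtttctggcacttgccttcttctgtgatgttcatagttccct
Il21r (chr7:125603179-125603428, plus strand): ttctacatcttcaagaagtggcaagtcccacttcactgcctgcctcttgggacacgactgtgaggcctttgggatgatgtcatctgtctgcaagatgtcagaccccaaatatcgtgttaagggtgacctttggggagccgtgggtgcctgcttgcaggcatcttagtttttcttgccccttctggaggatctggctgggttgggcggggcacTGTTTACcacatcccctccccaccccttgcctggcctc
Il6ra (chr3:89913197-89913446, minus strand): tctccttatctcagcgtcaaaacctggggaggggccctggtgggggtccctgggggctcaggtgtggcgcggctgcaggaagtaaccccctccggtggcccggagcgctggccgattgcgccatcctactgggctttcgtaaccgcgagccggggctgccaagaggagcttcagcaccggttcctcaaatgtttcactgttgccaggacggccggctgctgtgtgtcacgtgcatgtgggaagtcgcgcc
Il6st (chr13:112463820-112464069, plus strand): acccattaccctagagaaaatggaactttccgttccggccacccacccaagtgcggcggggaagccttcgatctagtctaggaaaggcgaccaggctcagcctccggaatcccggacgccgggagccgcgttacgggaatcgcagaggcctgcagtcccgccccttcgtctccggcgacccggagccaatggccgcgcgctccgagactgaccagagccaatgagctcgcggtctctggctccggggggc
The matches begin 142 bases before the RefSeq start of Il7r and 38 bases before that of Il21r. The Il7r start is not one that GENCODE lists: the printed Il7r bases lie before the starts of its coding transcripts there, but inside an intron of a longer Il7r transcript without a coding sequence, and so within the gene as given above. The IL-6 family genes had the windows richest in G and C, at 66.0% (Il6ra) and 68.3% (Il6st) with 25 and 33 CpG dinucleotides, and Il2ra and Il7r the poorest, at 42.7 and 45.7% with 3 and 1. The median over all windows was 52.7% and 7 CpG. The Il6ra window lies within the antisense RNA Gm42809.

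Il2ra, the alpha chain that gives the IL-2 receptor its high affinity, ranged most widely of the 9 genes detected in every group. Its level was 8.20 and 6.81 RPKM without cytokine, 187 and 194 in IL-2, 9.87 and 18.7 in IL-21, 35.1 and 37.2 with IL-2 + LDHi and 1.60 and 2.14 in IL-21 + LDHi. The highest group mean was 102 times the lowest, and no 2 groups next to each other in this order overlapped. How many of all genes show such gaps was not counted, here or for the genes below. With the inhibitor Il2ra fell both in IL-2 (log2 fold change -2.43 ± 0.33 SE, adjusted p = 0.000602) and in IL-21 (-3.02 ± 0.35, adjusted p = 0.00024). These and all adjusted p-values below come from edgeR's quasi-likelihood test with Benjamini-Hochberg adjustment over 14357 genes, and a gene is called at an adjusted p below 0.05. In IL-2 + LDHi it was still above cells without cytokine by 2.21 ± 0.33 (adjusted p = 0.00155), while in IL-21 + LDHi it was below them (-1.88 ± 0.34, adjusted p = 0.0022). IL-21 alone gave 1.14 ± 0.32 against no cytokine, which was not called (adjusted p = 0.054) and was called at 1.62 without IL-21 replicate 1 (adjusted p = 0.000194) and with DESeq2 (0.00302). Foxp3, a regulatory T cell gene, had a mean of 4.10 RPKM in IL-2 + LDHi and of at most 0.860 in the other groups. No library of those groups was above 1.23. The other genes of its marker list had lower means in IL-2 + LDHi than in IL-2. These were Ctla4 (14.7 against 189.9 RPKM), Ikzf2 (6.22 against 11.0) and Cd4 (0.481 against 0.810). The part of these genes in the Il2ra level was not tested.

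**Figure D1:**
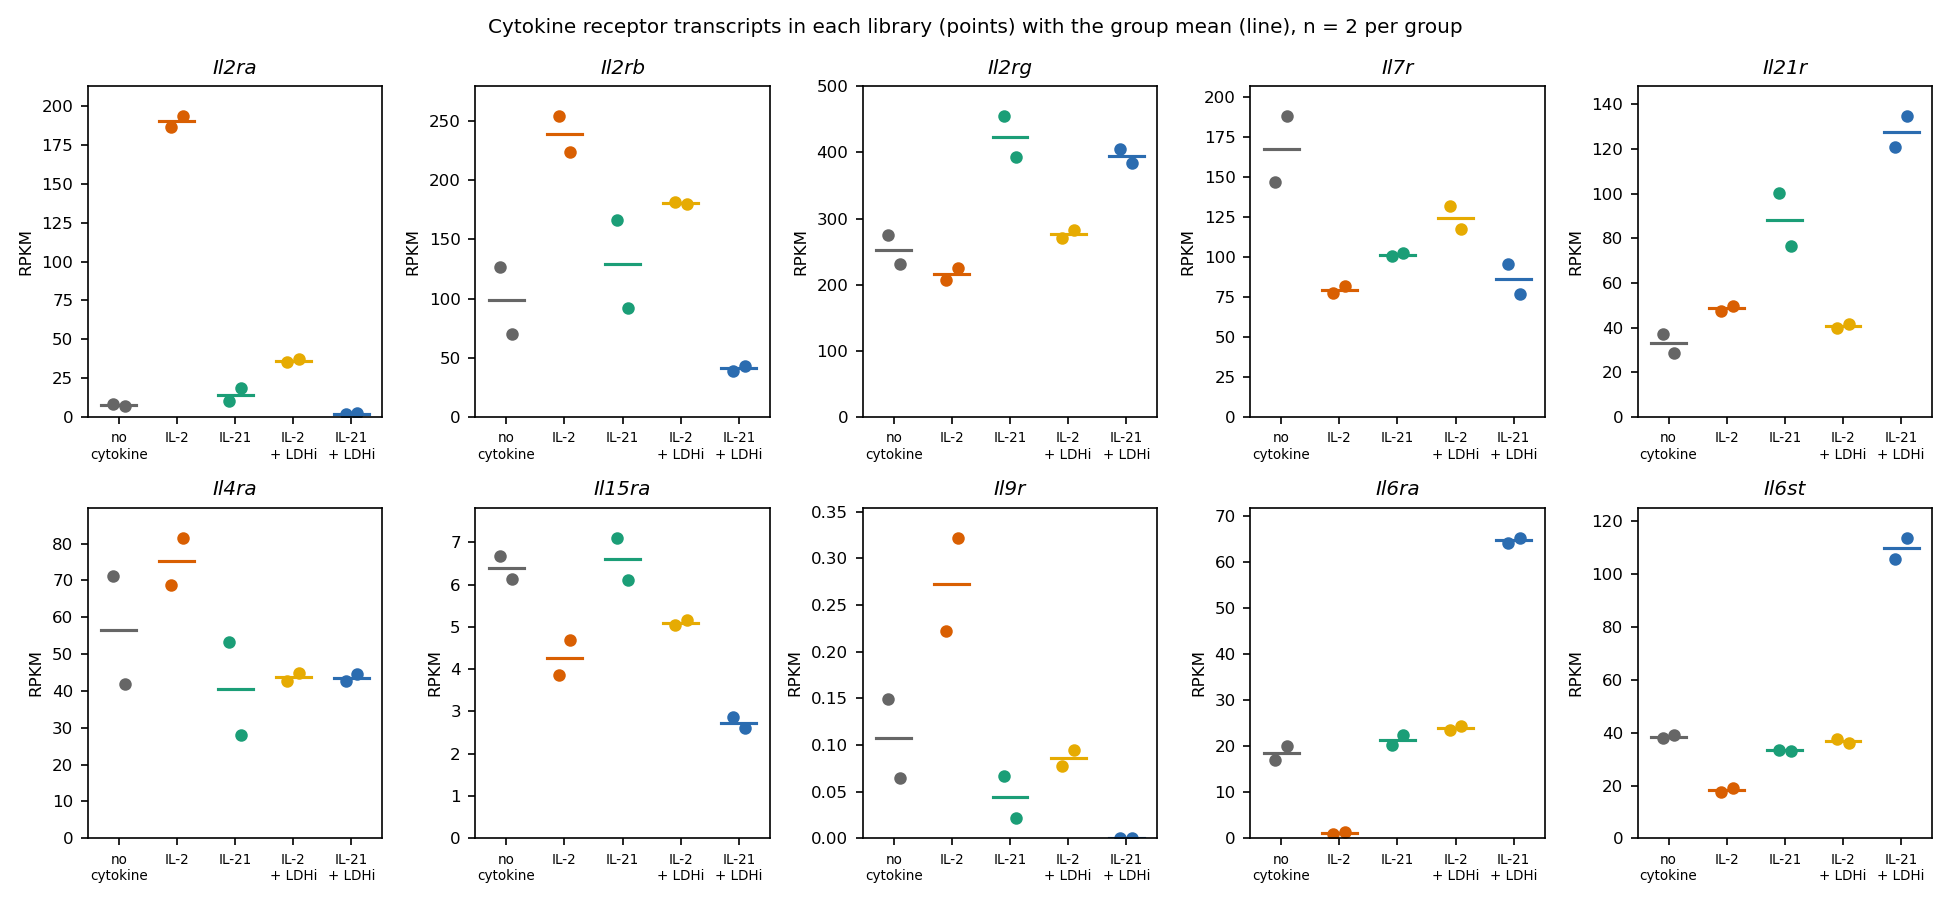
RPKM of each receptor gene (1 panel per gene, each with its own linear axis from 0) in the 5 groups, with 1 point per library and a line at the group mean. Il2ra peaks in IL-2 at a mean of 190.3 RPKM, where Il6ra is lowest at 1.06, and Il6ra and Il6st peak in IL-21 + LDHi at 64.7 and 109.8.

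Il2rb, the signalling beta chain shared by the IL-2 and IL-15 receptors, followed the same order of groups with a narrower range. It measured 127 and 70.2 RPKM without cytokine, 254 and 224 in IL-2, 167 and 92.0 in IL-21, 182 and 180.1 with IL-2 + LDHi and 39.2 and 43.1 in IL-21 + LDHi. The IL-21 libraries overlapped those without cytokine, and the other neighbours in the order did not overlap. Il2rb fell with the inhibitor in IL-21 (-1.65 ± 0.27, adjusted p = 0.00165) and was not called for it in IL-2 (-0.44 ± 0.26, adjusted p = 0.211). Genes of NK cells, which also carry Il2rb, summed to 8.09 to 8.87 RPKM in IL-2 + LDHi and at most 1.02 in the other groups, and their part was not tested.

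Il15ra, the private alpha chain for IL-15, lay between 2.60 and 7.11 RPKM in all libraries. It measured 6.67 and 6.12 RPKM without cytokine, 3.86 and 4.68 in IL-2, 7.11 and 6.11 in IL-21, 5.04 and 5.15 with IL-2 + LDHi and 2.87 and 2.60 in IL-21 + LDHi. It fell with the inhibitor in IL-21 (-1.31 ± 0.15, adjusted p = 0.000245), and in IL-2 the difference was 0.22 ± 0.15 (adjusted p = 0.289). Il15ra is listed with 9 overlapping transcripts that share reads, and the ratio of RPKM had the same sign in all 9 in each of the 5 comparisons examined, from -1.27 to -1.10 for the inhibitor in IL-21. IL-21 against no cytokine was not among these 5, and its sign differed between transcripts. With IL-21 the kept transcript went from a mean of 6.40 to 6.61 RPKM and another from 5.53 to 5.10. Its neighbour Il2ra rose with IL-2 while Il15ra fell.

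Il2rg, the common gamma chain, had the highest mean of the 10 genes in every group except IL-2, where Il2rb was higher. Its level was 276 and 231 RPKM without cytokine, 206.5 and 225 in IL-2, 455 and 392 in IL-21, 270.1 and 282 with IL-2 + LDHi and 405 and 384 in IL-21 + LDHi. The 4 libraries with IL-21 lay above the 6 others. It was higher in IL-21 than without cytokine (0.90 ± 0.12, adjusted p = 0.00228), although not in a fit of those groups alone (adjusted p = 0.133), and higher in IL-21 + LDHi than in IL-2 + LDHi (0.70 ± 0.12, adjusted p = 0.0023). It was not called for the inhibitor in IL-2 (0.32 ± 0.12, adjusted p = 0.0605) or in IL-21 (-0.14 ± 0.12, adjusted p = 0.409).

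Il21r, the private chain for IL-21, was highest where IL-21 was given. Cells without cytokine had 37.3 and 28.7 RPKM, IL-2 cells 47.6 and 49.9, IL-21 cells 100.3 and 76.5, IL-2 + LDHi cells 39.8 and 41.8, and IL-21 + LDHi cells 121 and 135. No neighbouring groups in the order overlapped. The rise with IL-21 over no cytokine was 1.57 ± 0.13 (adjusted p = 0.000214), and the inhibitor added 0.51 ± 0.13 in IL-21 (adjusted p = 0.0168). That last call was lost without IL-21 + LDHi replicate 2 (adjusted p = 0.118), with limma (0.0563) and in a fit of those groups alone (0.0769).

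Il7r, the private chain for the survival cytokine IL-7, was highest without cytokine. It measured 147 and 188 RPKM there, 77.3 and 81.6 in IL-2, 100.4 and 102 in IL-21, 132 and 117 with IL-2 + LDHi and 95.2 and 76.8 in IL-21 + LDHi. The IL-2 and IL-21 + LDHi libraries overlapped. With the inhibitor Il7r rose in IL-2 (0.61 ± 0.18, adjusted p = 0.0229), a call lost when either library of IL-2 or of IL-2 + LDHi was left out (adjusted p from 0.0566 to 0.144), and in IL-21 it gave -0.28 ± 0.18 (adjusted p = 0.254).

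Il4ra, the private chain for IL-4, had the narrowest range of the 9 genes detected in every group, with the highest mean 1.85 times the lowest, and its neighbouring groups all overlapped. Its level was 71.1 and 41.9 RPKM without cytokine, 68.9 and 81.6 in IL-2, 53.2 and 28.0 in IL-21, 42.8 and 44.8 with IL-2 + LDHi and 42.7 and 44.6 in IL-21 + LDHi. It was called in 2 of the 8 pairwise comparisons, both against IL-2: lower in IL-21 (-0.75 ± 0.25, adjusted p = 0.0347) and in IL-2 + LDHi (-0.82 ± 0.25, adjusted p = 0.0296). Both calls were lost in most fits that left out a library of these groups, with adjusted p up to 0.180 without IL-2 replicate 2. Il9r, the private chain for IL-9, was barely transcribed, with 26 and 9 reads without cytokine, 34 and 55 in IL-2, 11 and 3 in IL-21, 15 and 14 with IL-2 + LDHi and 0 in both IL-21 + LDHi libraries. Against a floor of 3 counts over that group it was at least 28.0-fold higher in IL-2, at least 11.4-fold higher without cytokine, at least 8.64-fold higher in IL-2 + LDHi and at least 4.70-fold higher in IL-21. The floor covers counting error only.

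Il6ra and Il6st, the private and shared chains of the IL-6 receptor, were both lowest in IL-2 and both highest in IL-21 + LDHi. Il6ra measured 17.0 and 20.1 RPKM without cytokine, 0.843 and 1.27 in IL-2, 20.3 and 22.5 in IL-21, 23.6 and 24.3 with IL-2 + LDHi and 64.0 and 65.3 in IL-21 + LDHi. Il6st measured 37.8 and 39.2 RPKM without cytokine, 17.5 and 19.0 in IL-2, 33.5 and 33.1 in IL-21, 37.4 and 36.2 with IL-2 + LDHi and 106 and 114 in IL-21 + LDHi. No neighbouring groups overlapped in RPKM for either gene, and the highest mean was 61.2 times the lowest for Il6ra and 6.02 times for Il6st. The order of IL-21 and IL-2 + LDHi turned with the scaling. In RPKM, IL-2 + LDHi was above IL-21 for both genes. In centred log2 CPM, as scaled for the fit, IL-21 was above (0.678 against 0.624 for Il6ra, -0.123 against -0.196 for Il6st). With the inhibitor Il6ra rose by 4.46 ± 0.22 in IL-2 (adjusted p = 8.24e-06) and by 1.54 ± 0.19 in IL-21 (adjusted p = 0.000359), and Il6st by 0.97 ± 0.12 (adjusted p = 0.000371) and 1.68 ± 0.12 (adjusted p = 1.41e-05). Among the 2557 genes called higher with the inhibitor in IL-2, Il6ra ranked 62 by size, and among the 1589 called higher with it in IL-21, Il6st ranked 89 and Il6ra 118. Macrophages and basophils can also carry IL-6 receptors. Their marker sums were, like both genes, lower in IL-2 than without cytokine or in IL-21. Cd68 of the macrophage list was not (10.7 RPKM in IL-2, 9.68 without cytokine and 7.30 in IL-21). The sums were lowest in IL-21 + LDHi, where both genes were highest, and their part was not tested.

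The first question of the design is what IL-2 adds to activated cells. Against cells without cytokine, 7 of the 10 receptor genes were called, 3 higher and 4 lower, where 50.5% of all genes tested were called (25.6% higher and 24.8% lower). Il2ra rose 25.0-fold, Il2rb 2.40-fold and Il21r 1.46-fold, while Il6ra fell (log2 -4.15 ± 0.22), as did Il6st (-1.10 ± 0.12), Il7r (-1.09 ± 0.18) and Il15ra (-0.60 ± 0.15). Their median size of change was 1.096 on the log2 scale against 0.58 over all genes. The Il15ra call was lost without IL-2 replicate 1 (adjusted p = 0.0833), and the other 6 were kept in all alternatives run. Il2rg became called without NC replicate 2 (adjusted p = 0.0477; NC stands for the group without cytokine), Il4ra without NC replicate 1 (0.0297) and Il9r without either IL-21 library (0.0338 and 0.0328).

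IL-21 against no cytokine called 2 of the 10, both higher, Il21r and Il2rg, where 11.5% of all genes were called (5.65% higher and 5.9% lower). The count lower was 0 with edgeR, 1 at an unadjusted p below 0.05, 1 with DESeq2 and 1 with limma. Levels of Il6ra (0.38 ± 0.19), Il6st (-0.04 ± 0.12) and Il15ra (0.20 ± 0.15) were not called. Il2rb became called without NC replicate 1 (adjusted p = 0.0404), Il6ra without IL-21 replicate 1 (0.0308) and Il7r without IL-21 replicate 2 (0.0310). Compared with IL-2 itself, cells in IL-21 differed in all 10 receptor genes, 6 higher and 4 lower, where 49.6% of all genes were called (24.9% higher and 24.7% lower). Il9r had only 11 and 3 reads in IL-21, and without it the count was 9 of 9, 6 higher and 3 lower. Il6ra was 23.1-fold, Il2rg 2.22-fold, Il6st 2.08-fold, Il21r 2.03-fold and Il15ra 1.75-fold higher, with Il7r at 1.45-fold, and Il2ra was 11.4-fold lower, with Il9r, Il4ra and Il2rb lower as well. The macrophage and basophil sums given above were higher in IL-21 here (40.8 to 45.0 against 10.9 to 13.5 RPKM, and 61.4 to 82.9 against at most 2.64). Cd68 of the macrophage list was not (7.30 against 10.7 RPKM), and the part of these cells was not tested. Calls for Il2rb, Il7r and Il4ra were lost without IL-2 replicate 1 (adjusted p of 0.177, 0.140 and 0.0777), without IL-2 replicate 2 (0.0954, 0.102 and 0.180) and without IL-21 replicate 2 (0.155, 0.122 and 0.138). Leaving out IL-2 replicate 2 also lost the Il9r call (0.0718), and those of Il2rb and Il4ra also without each inhibitor library (from 0.0537 to 0.0625).

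**Figure D2:**
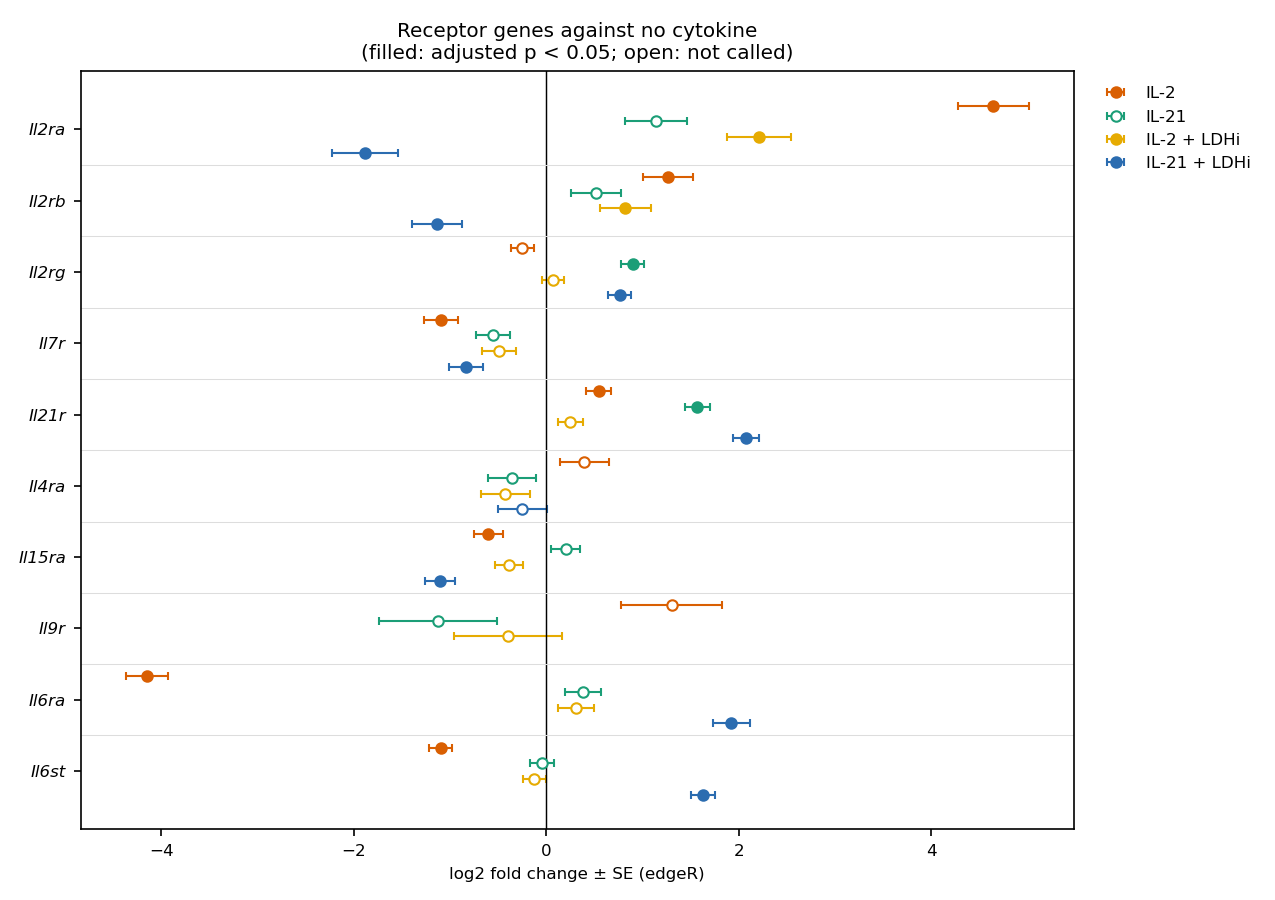
Log2 fold change (points) with its SE (bars) of each receptor gene against cells without cytokine, in the 4 other groups. Filled points were called at an adjusted p below 0.05. Il9r in IL-21 + LDHi, at 0 reads, is left out. Il6ra lies at -4.15 in IL-2 and at 1.92 in IL-21 + LDHi, and Il2ra at 4.65 and -1.88.

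The next question is what the inhibitor does to cells in each cytokine. In IL-2 it called 6 of the 10, 3 higher (Il6ra, Il6st and Il7r) and 3 lower (Il2ra, Il4ra and Il9r), where 39.4% of all genes were called (17.8% higher and 21.6% lower). Il6ra was 21.97-fold and Il6st 1.96-fold higher, and Il2ra was 5.41-fold lower. This comparison shares its IL-2 libraries with that of IL-2 against no cytokine. The log2 values there and here were 4.65 and -2.43 for Il2ra, -4.15 and 4.46 for Il6ra, -1.10 and 0.97 for Il6st, and -1.09 and 0.61 for Il7r. Only Il2ra, Il6ra and Il6st kept their call in all alternatives run. Calls for Il7r, Il4ra and Il9r were each lost without IL-2 replicate 1, IL-2 replicate 2, IL-2 + LDHi replicate 1 and IL-2 + LDHi replicate 2 (adjusted p from 0.0566 to 0.210), which left 3 called genes in each case. Il2rg became called without any 1 of the NC and IL-21 libraries (adjusted p from 0.0338 to 0.0391) and Il21r without either NC library (0.0439 and 0.0446).

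Il9r had 0 reads in IL-21 + LDHi and passed the filter on low counts through other groups, so comparisons with IL-21 + LDHi are counted over the 9 other genes. In IL-21 the inhibitor called 6 of these 9, 3 higher (Il6st, Il6ra and Il21r) and 3 lower (Il2ra, Il15ra and Il2rb), where 31.4% of all genes were called (11.1% higher and 20.3% lower). Il6st was 3.20-fold and Il6ra 2.92-fold higher, and Il2ra was 8.12-fold, Il2rb 3.15-fold and Il15ra 2.47-fold lower. The median size of change over the 9 was 1.31 on the log2 scale against 0.40 over all genes.

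**Figure D3:**
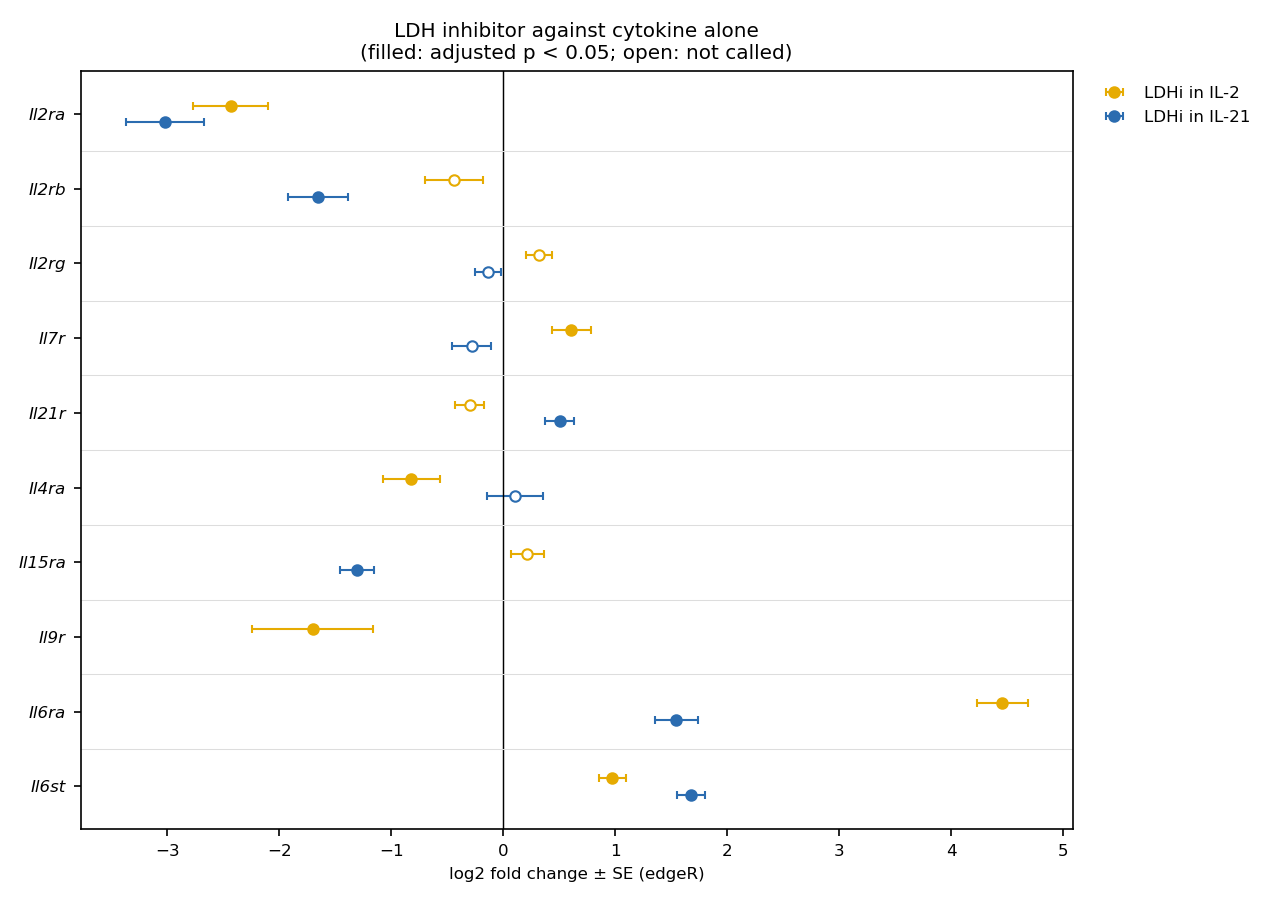
Log2 fold change (points) with its SE (bars) of each receptor gene with the LDH inhibitor against the same cytokine alone. Filled points were called at an adjusted p below 0.05, and Il9r in IL-21, at 0 reads with the inhibitor, is left out. Il6ra changed by 4.46 in IL-2 and 1.54 in IL-21, and Il2ra by -2.43 and -3.02.

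Whether the inhibitor acted differently in the 2 cytokines was tested as an interaction, its effect in IL-21 minus its effect in IL-2, and 6 of the 9 genes were called, 2 higher and 4 lower, where 21.8% of all genes were called (7.98% higher and 13.8% lower). On the log2 scale, the inhibitor's effect on Il6ra was smaller in IL-21 (-2.91 ± 0.28, adjusted p = 0.000181) and that on Il6st larger by 0.70 ± 0.17 (adjusted p = 0.0182). For Il6ra this rests on a low level in IL-2. Its mean went from 1.06 to 23.9 RPKM there and from 21.4 to 64.7 in IL-21, a larger rise in RPKM. Il15ra gave -1.52 ± 0.21 (adjusted p = 0.00127), Il2rb -1.21 ± 0.37 (adjusted p = 0.0456), Il7r -0.89 ± 0.25 (adjusted p = 0.0329) and Il21r 0.80 ± 0.18 (adjusted p = 0.0139). For Il2ra, lower with the inhibitor in both cytokines, the interaction was -0.59 ± 0.46 and not called (adjusted p = 0.402), and it moved from -1.07 without IL-21 replicate 1 (adjusted p = 0.00392) to 0.14 without IL-21 replicate 2. Only Il6ra and Il15ra kept the call in all alternatives run. Il7r, Il21r, Il6st and Il2rb were not called without IL-2 replicate 2, IL-2 + LDHi replicate 1, IL-2 + LDHi replicate 2 or IL-21 + LDHi replicate 2 (adjusted p from 0.0574 to 0.154), Il7r and Il2rb also not without IL-2 replicate 1 (0.111 and 0.101), and Il2rb not without IL-21 replicate 1 (0.0631) or IL-21 + LDHi replicate 1 (0.147). Il2rg became called without IL-21 replicate 1 (0.0488), and Il4ra without it (0.0123) or either NC library (0.0467 and 0.0457).

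With the inhibitor present in both, IL-21 against IL-2 called 7 of the 9, 4 higher and 3 lower, where 26.1% of all genes were called (9.39% higher and 16.7% lower). Il6st (3.38-fold), Il21r (3.55-fold), Il6ra (3.06-fold) and Il2rg (1.62-fold) were higher in IL-21 + LDHi, and Il2ra (17.1-fold), Il2rb (3.89-fold) and Il15ra (1.64-fold) were lower. The Il15ra call was lost without IL-2 + LDHi replicate 1 (adjusted p = 0.0560), IL-2 + LDHi replicate 2 (0.0604) or IL-21 + LDHi replicate 2 (0.0774). The median size of change over the 9 was 1.61 against 0.37 over all genes on the log2 scale.

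Against cells without cytokine, IL-2 + LDHi called 2 of the 10, Il2ra (4.63-fold higher) and Il2rb (1.77-fold higher, adjusted p = 0.0494), where 24.2% of all genes were called (10.9% higher and 13.3% lower). No receptor gene was called lower by edgeR, against 2 at an unadjusted p below 0.05, 1 with DESeq2 and 0 with limma. Il2rb kept its call in 8 of 18 alternatives and lost it without NC replicate 2 (adjusted p = 0.203) and without any 1 library of IL-2 or of the inhibitor groups (from 0.0730 to 0.179). Without NC replicate 1 the count was 4, with Il7r (0.0495) and Il21r (0.0429) added, and Il7r was also called without either IL-21 library (0.0319 and 0.0313). Il6ra (0.31 ± 0.19) and Il6st (-0.12 ± 0.12), called lower in IL-2 alone, were not called here. IL-21 + LDHi called 8 of the 9, 4 higher and 4 lower, where 37.1% of all genes were called (13.5% higher and 23.6% lower). Il21r (4.22-fold), Il6ra (3.79-fold), Il6st (3.10-fold) and Il2rg (1.70-fold) were higher, and Il2ra (3.69-fold), Il2rb (2.198-fold), Il15ra (2.15-fold) and Il7r (1.79-fold) lower. The Il2rb call was lost without NC replicate 1 (adjusted p = 0.0552) or IL-21 + LDHi replicate 1 (0.0677), and that of Il7r without IL-21 + LDHi replicate 2 (0.0555).

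Chain levels per length were also set against their partner chains within each library. Il2ra per Il2rg was 0.0296 ± 0.000142 (mean ± SD of the ratio of RPKM, n = 2) without cytokine, 0.883 ± 0.0315 in IL-2, 0.0346 ± 0.0183 in IL-21, 0.131 ± 0.00122 in IL-2 + LDHi and 0.00476 ± 0.00116 in IL-21 + LDHi. In IL-2 cells, the 3 chains of the IL-2 receptor had mean levels of 190.3 (Il2ra), 239 (Il2rb) and 216 RPKM (Il2rg). Il2rb per Il2rg was 1.11 ± 0.167 in IL-2 but 0.104 ± 0.0110 with IL-21 + LDHi, and 0.382 ± 0.111 without cytokine, 0.300 ± 0.0932 in IL-21 and 0.656 ± 0.0254 with IL-2 + LDHi. The 5 chains listed here that pair with the gamma chain (Il2rb, Il7r, Il21r, Il4ra and Il9r) summed to 2.06 ± 0.161 times Il2rg in IL-2 but to 0.757 ± 0.0319 times in IL-21 + LDHi. Il21r per Il2rg was lowest without cytokine at 0.130 ± 0.00785 and highest at 0.324 ± 0.0377 in IL-21 + LDHi. Il6ra per Il6st was 0.0575 ± 0.0131 in IL-2 and between 0.450 and 0.679 in the 8 other libraries. These ratios are descriptions with no test.

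**Figure D4:**
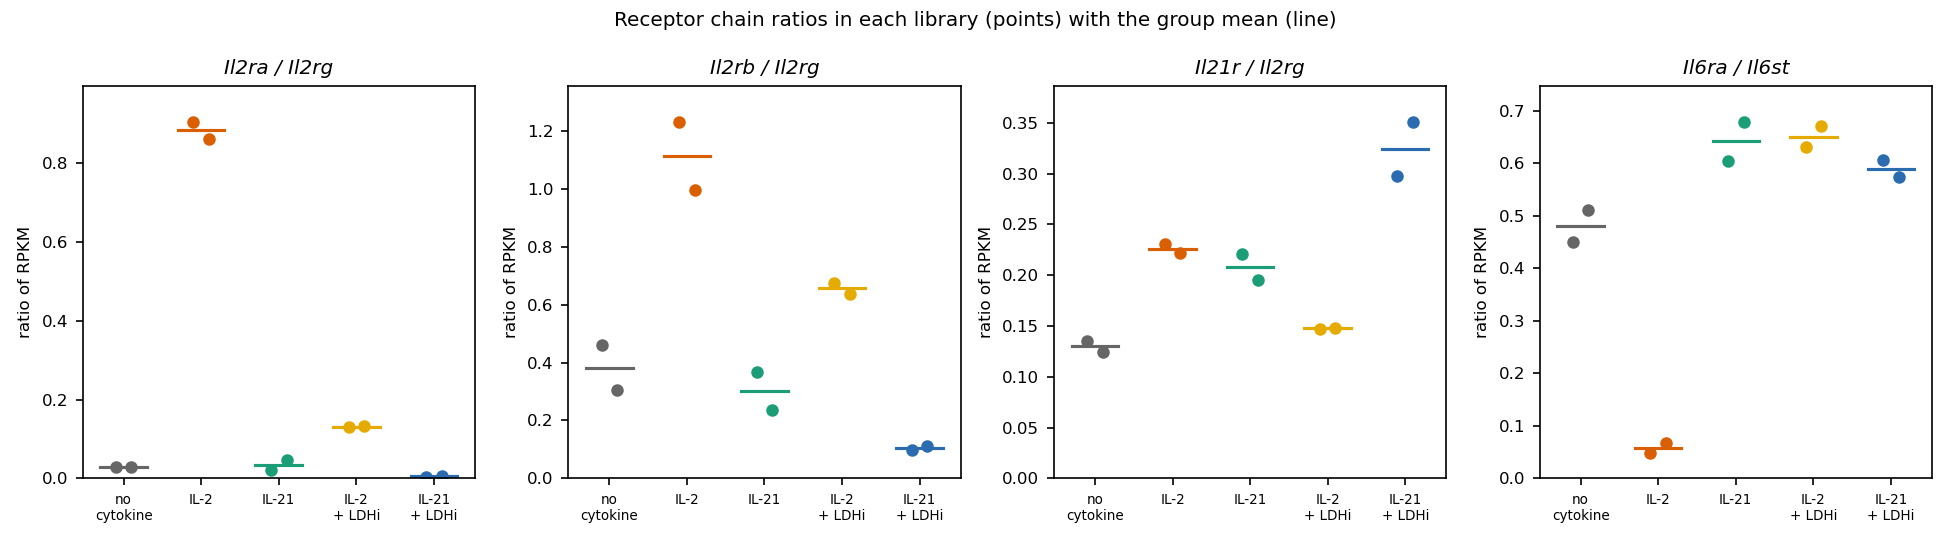
Ratio of RPKM between receptor chains in each library (points) with the group mean (line), on linear axes from 0. Il2ra per Il2rg reaches 0.883 in IL-2 and 0.131 in IL-2 + LDHi, and Il6ra per Il6st is 0.0575 in IL-2 against 0.480 to 0.650 as means of the other groups.

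Of 31 other cytokine receptor chains, 29 were tested. With the inhibitor, 5 rose and 7 fell in IL-2, where 17.8% of all genes were called higher and 21.6% lower, against 4 and 14 in IL-21, where 11.1% were called higher and 20.3% lower. These shares over all genes also stand beside the counts of the lists that follow. Il12rb2, the inducible chain of the IL-12 receptor, fell in both (-4.40 ± 0.25 and -4.46 ± 0.25), from 101.3 ± 14.6 to 4.93 ± 0.128 RPKM in IL-2 and from 53.8 ± 1.56 to 2.52 ± 0.706 in IL-21 (n = 2). Its partner Il12rb1 fell by 0.81 in IL-2 and by 3.43 in IL-21 on the log2 scale, to 15.2 ± 0.0449 and 0.687 ± 0.158 RPKM, and the difference was called (-2.62 ± 0.27, adjusted p = 0.000274). Il27ra, the private chain of the IL-27 receptor that pairs with Il6st, rose with the inhibitor in IL-2 (1.07 ± 0.20) and in IL-21 (0.67 ± 0.20), and so did Il17ra, a chain of the IL-17 receptor (0.39 ± 0.11 and 0.89 ± 0.11). Il27ra was lower in IL-2 than without cytokine (-1.27 ± 0.20), as Il6ra and Il6st were.

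Of 15 ligands of these receptors, 9 were tested, and with the inhibitor 2 rose and 2 fell in IL-2 (all genes: 17.8 and 21.6%), against 2 and 6 in IL-21 (11.1 and 20.3%). Clcf1, an IL-6 family ligand, was 10.5 ± 0.638 RPKM in IL-2, 43.4 ± 1.11 in IL-2 + LDHi, 21.0 ± 6.51 in IL-21 and 39.8 ± 2.29 in IL-21 + LDHi, and both changes were called (2.00 ± 0.14 and 0.91 ± 0.14). Lif, another ligand that signals through Il6st, rose with IL-2 (4.65 ± 0.50) and fell with the inhibitor in IL-2 (-1.34 ± 0.42) and in IL-21 (-2.38 ± 0.59). Ebi3, a subunit of IL-27, fell in IL-2 with the inhibitor (-3.88 ± 0.27) and had 0 reads in both IL-21 + LDHi libraries. Ebi3 thus passed the filter on low counts through other groups. It is among the 6 ligands counted as falling in IL-21, so that count is a description only.

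All 11 Janus kinases and STATs were tested, and with the inhibitor 1 rose and 5 fell in IL-2 (all genes: 17.8 and 21.6%), against 0 and 3 in IL-21 (11.1 and 20.3%), by edgeR. For the 0, an unadjusted p below 0.05 gave 1 higher, DESeq2 1 and limma 0. Jak3, the kinase bound to the gamma chain, measured 52.1 ± 1.62 RPKM in IL-2, 16.2 ± 0.0992 in IL-2 + LDHi, 59.6 ± 24.6 in IL-21 and 56.1 ± 0.901 in IL-21 + LDHi, and its interaction was called (1.64 ± 0.30, adjusted p = 0.0051). Jak1, which binds the private chains and Il6st, was lower in IL-2 than without cytokine (-1.02 ± 0.12) and rose with the inhibitor in IL-2 (0.65 ± 0.12). Among 16 negative regulators, 4 rose and 3 fell with the inhibitor in IL-2 (all genes: 17.8 and 21.6%), against 2 and 3 in IL-21 (11.1 and 20.3%), shares near those over all genes. Cish, a feedback inhibitor of STAT5 signalling, was 41.1 ± 4.09 RPKM in IL-2 and 38.6 ± 0.209 in IL-2 + LDHi (-0.13 ± 0.22, adjusted p = 0.666), while Il2ra fell there. Socs2, of the same list, was called lower with the inhibitor both in IL-2 and in IL-21. In IL-21 Cish fell with the inhibitor from 4.94 ± 2.43 to 0.400 ± 0.112 RPKM (-3.62 ± 0.28). Socs3, a feedback inhibitor of Il6st signalling, was 174 ± 56.6 RPKM in IL-21 and 251 ± 36.4 in IL-21 + LDHi, against 12.5 ± 0.171 to 20.7 ± 2.00 in the other groups.

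Genes for receptor cleavage and trafficking (11 tested) showed 0 rises and 3 falls with the inhibitor in IL-2 by edgeR (all genes: 17.8 and 21.6%), against 2 and 1 in IL-21 (11.1 and 20.3%). For the 0, an unadjusted p below 0.05 gave 0 higher, DESeq2 0 and limma 0. Of 17 transcription factors known to bind promoters of receptor genes, 5 rose and 4 fell with the inhibitor in IL-2 (all genes: 17.8 and 21.6%), against 1 and 5 in IL-21 (11.1 and 20.3%). Klf2, a factor of resting T cells, rose in both (2.66 ± 0.23 and 1.20 ± 0.21), from 21.8 ± 0.639 to 142 ± 2.33 RPKM and from 96.8 ± 45.3 to 221 ± 20.3. Foxo1, which is known to act on Il7r, rose in IL-2 (0.86 ± 0.11) and gave -0.03 ± 0.11 in IL-21 (adjusted p = 0.857). For Il7r these values were 0.61 ± 0.18 and -0.28 ± 0.18. Tbx21, which encodes T-bet, known to act on Il2rb, fell with the inhibitor in IL-21 (-3.88 ± 0.27, to 1.11 ± 0.340 RPKM), and its change in IL-2 was not called (-0.60 ± 0.23, adjusted p = 0.0663). Of the other factors listed, Eomes was called higher with the inhibitor in IL-2 and lower in IL-21, and Gfi1 and Prdm1 lower in both. The part of these factors in the receptor levels was not tested.

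For each receptor gene the closest pattern over the 5 group means was sought among 8383 genes (8384 for Il9r), as the root mean square difference of centred log2 CPM. Closest to Il2ra were Dkkl1 (0.392), Rad51b (0.534) and Fasl (0.535), and closest to Il6ra were Fam211b (0.430), Fam101b (0.466) and Vipr1 (0.481). Il6st lay nearest to Dapl1 (0.164), Tmem42 (0.168) and Neat1 (0.172), Il7r to Ltb (0.0430), and Il21r to Snora31 (0.178) and Treml2 (0.179). The nearest gene was Zmiz1 for Il2rb (0.135), Tle3 for Il2rg (0.0924), Slc25a36 for Il4ra (0.0381), Fyn for Il15ra (0.110) and Fabp5 for Il9r (0.228). Il9r had 0 reads in IL-21 + LDHi, so its value there rests on a small count added before the log. Its nearest gene depends on that added count. Within the 10, Il7r and Il15ra were closest to each other (0.361), followed by Il2rg and Il21r (0.467), and Il2ra and Il6ra were furthest apart (4.12). These are descriptions over 5 means from 10 libraries.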

How the data were processed

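The authors deposited for each of the 10 libraries read counts per RefSeq transcript, the transcript length, a library total and RPKM, per the file headers. The submitters' processing notes name the build mm10 and the tools bedtools 2.25.0, Bowtie2 2.2.6, edgeR (without a version), SAMtools 0.1.8 and TopHat2 2.2.1. The strandedness of counting was not given in the sources used here.

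Levels are the deposited RPKM, scaled by the authors' library totals. Of these totals, 59.9% lay on kept transcripts in IL-21 replicate 2 and 69.1 to 79.4% in the other libraries. Counts of the transcript with the most reads per symbol were tested with edgeR 4.0.16 (R 4.3.3): TMM factors, a low-count filter (filterByExpr, at least 10 reads, total at least 15), and 1 robust quasi-likelihood model of all 10 libraries, with 8 pairwise comparisons and 1 interaction. The filter kept 14357 genes, all 10 receptor genes included; Il9r is at 0 in 1 group, so it passed through the others and is left out of the counts of called genes in comparisons with that group. The common biological coefficient of variation was 0.171. The SE is the size of the log2 fold change over the square root of F. The code of the fit was also run on simulated counts in which all genes and groups had the same spread. That run does not bear on groups of unequal spread, as the groups here are. The 18 alternatives were DESeq2 1.42.0, limma 3.58.1 on log2(RPKM + 1), RLE factors, scaling by library size alone, no filter, the longest transcript, fitting the compared groups alone, a replicate block, and leaving out each library. A replicate block within no cytokine and IL-21 alone was added after seeing the data.

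The receptor genes, the 6 lists of other genes and the markers were chosen with earlier results of these data known. Genes named from a list are among its 3 with the lowest p in a comparison or have a called interaction. The genes closest in pattern are the 3 with the smallest difference among those at a mean of 5 RPKM or more in their highest group. Protein sequences and the Il2rb promoter were not analysed here. Tables and figures were made with matplotlib 3.10.9, numpy 2.4.6 and pandas 2.3.3 in Python 3.11.15.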

Additional observations from a re-analysis of the deposited data

Results flagged for a closer look

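For 6 receptor genes the inhibitor's effect differed between cells in IL-21 and cells in IL-2, by edgeR's test of the difference itself (log2, effect in IL-21 minus effect in IL-2). Over all genes tested, 21.8% were called for this difference (7.98% higher and 13.8% lower). Il6ra gave -2.91 (adjusted p = 0.000181) and Il15ra -1.52 (adjusted p = 0.00127), and these calls held in all alternatives run. Il2rb gave -1.21 (adjusted p = 0.0456), Il7r -0.89 (adjusted p = 0.0329), Il21r 0.8 (adjusted p = 0.0139) and Il6st 0.7 (adjusted p = 0.0182), each lost in 4 or more of the 18 alternatives. Il6ra and Il6st rose with the inhibitor in both cytokines, so for them the difference is one of size on the log2 scale. Il7r rose with it in IL-2 and gave -0.28 in IL-21, and Il21r rose with it in IL-21 and gave -0.30 in IL-2.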

How the results depend on the processing

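Of 57 called receptor results in the 9 comparisons (Il9r included, as in all counts here), 38 kept their call in all alternatives run. There were 18 alternatives for each result, except for Il9r, with 16 or 17. Over the settings that kept all libraries, 672 of the receptor results and alternatives tried stayed on their side of the threshold with the same direction, 18 became called, 17 lost the call and 2 reversed, none of them called: Il4ra in IL-21 + LDHi against IL-2 + LDHi (-0.0051 with limma) and the Il2ra interaction (0.0077 with limma). In IL-21 against no cytokine, 4 receptor genes were called with DESeq2 and 1 in a fit of only these groups, against 2. In IL-2 + LDHi against no cytokine, 1 was called without a filter, with limma and in a fit of only these groups, against 2. Where 1 library was left out, the number called ranged from 6 to 8 for IL-2 and 2 to 4 for IL-21 against no cytokine, 6 to 10 for IL-21 against IL-2, 3 to 8 for the inhibitor in IL-2, 5 to 7 for it in IL-21, 7 to 8 for IL-21 + LDHi against IL-2 + LDHi, 1 to 4 for IL-2 + LDHi and 8 to 9 for IL-21 + LDHi against no cytokine, and 2 to 8 for the interaction. Results that were not called and reversed when a library was left out were Il4ra (-0.70 to 0.0661) and Il6st (-0.19 to 0.0880) in IL-21 against no cytokine, Il4ra with the inhibitor in IL-21 (-0.17 to 0.46), Il2rg (-0.0409 to 0.20), Il4ra (-0.74 to 0.00084) and Il9r (-0.85 to 0.34) in IL-2 + LDHi against no cytokine, Il4ra in IL-21 + LDHi against no cytokine (-0.57 to 0.17) and the Il2ra interaction (-1.07 to 0.14). The cause was not tested. In the fits without 1 library, the number called over all genes changed as well, in each of the 9 comparisons. Whether the receptor calls gained or lost there go beyond this change was not tested. Among all genes, a fit of only the groups compared called 91 in IL-21 against no cytokine (against 1658), 4522 in IL-21 against IL-2 (7123), 9069 and 2259 for the inhibitor in IL-2 (5657) and IL-21 (4501), and 7352 in IL-21 + LDHi against IL-2 + LDHi (3742). With limma the counts were 2710 for the inhibitor in IL-21, 2154 and 3363 with IL-2 + LDHi and IL-21 + LDHi against no cytokine (3472 and 5321), and 1915 for the interaction (3124). Library size alone moved the median of all genes from -0.03 to -0.17 for IL-2 against no cytokine, from 0.01 to 0.13 for the inhibitor in IL-2 and from -0.08 to -0.22 for the interaction.

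The labels do not say that replicate numbers pair the samples, and the main model did not treat them as pairs. Deviations of same-numbered libraries correlated at 0.48 between IL-21 and no cytokine and between -0.15 and 0.11 in the 9 other pairs of groups. With the replicate block over all groups all 57 called and 33 uncalled receptor results stayed as they were. With a replicate block within no cytokine and IL-21 alone, chosen after seeing the data, IL-21 against no cytokine called 6 receptor genes and 4418 of all genes, against 2 and 1658 without it: Il2rb (0.55, adjusted p = 0.00231), Il7r (-0.55, 0.00355), Il4ra (-0.34, 0.0158) and Il6ra (0.37, 0.0317) were added. The replicates show no more than 2 libraries a group allow, and the depth limits Il9r alone, at 55 reads or fewer.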
